A study of Mus musculus with 18 samples.

Results

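The type 2 effector cytokine genes Il4, Il13 and Il31 were followed in mouse basophils. Members were the probes whose annotated gene symbol was one of these names, which found 3 probes, 1 for each gene, of 45281 on the array. All 3 passed the filter on dim probes and were among the 9973 genes tested. RNA from bone marrow-derived basophils of C57BL/6J mice aged 4 to 6 weeks was measured on 18 Illumina bead arrays, 3 in each of 6 groups. The groups were IL-33-stimulated ST2KO cells, IL-33-stimulated WT cells, IgE-activated ST2KO cells, IgE-activated WT cells, unstimulated ST2KO cells and unstimulated WT cells, and both kinds of stimulation lasted 4 h. ST2 is the receptor for the alarmin IL-33, so the design asks which responses of the cytokine genes to IL-33 and to IgE differ in cells labelled as lacking it. The ST2 gene, Il1rl1, had 0 annotated probes, and the genotype was therefore not checked on its own transcript. The labels do not say whether the arrays of a group came from separate mice or cultures, so a p-value here weighs a difference against the spread of these arrays alone, and that spread may be purely technical.

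Basophils are rare granulocytes that carry the high-affinity IgE receptor. When IgE on their surface is engaged, they make IL-4 and IL-13, cytokines of allergy and of defence against worms. IL-4 and IL-13 share the receptor chain IL-4Rα and signal through the kinases of the JAK family to STAT6. IL-4 drives B cells to switch to IgE and T cells towards the type 2 fate, while IL-13 acts more on epithelium, smooth muscle and macrophages. IL-31 acts through another receptor, built of IL-31RA and the oncostatin M receptor OSMR, on sensory neurons and epithelium, and it is known as a cytokine of itch.

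Il4 and Il13 are neighbours in the type 2 cytokine cluster and are read from the same strand. In the mouse build GRCm38.p6, RefSeq places Il4 at chr11:53612460-53618665 and Il13 at chr11:53631323-53634702, with 12657 bases between them. Il31 lies elsewhere, at chr5:123480152-123482623, also on the minus strand. The 250 bases before each gene's start are printed from RefSeq, 5′ to 3′ on the strand of the gene, because the promoters of Il4 and Il13 are known to bind the calcium-activated factor NFAT. Capitals mark each match to the NFAT core GGAAA or its reverse complement TTTCC. The windows are chr11:53618666-53618915 for Il4, chr11:53634703-53634952 for Il13 and chr5:123482624-123482873 for Il31.
Il4: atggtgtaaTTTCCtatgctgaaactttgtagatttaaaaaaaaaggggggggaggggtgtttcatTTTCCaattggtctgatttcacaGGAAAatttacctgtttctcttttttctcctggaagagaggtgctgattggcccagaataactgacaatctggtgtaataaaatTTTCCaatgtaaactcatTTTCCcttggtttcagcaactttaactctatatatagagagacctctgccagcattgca
Il13: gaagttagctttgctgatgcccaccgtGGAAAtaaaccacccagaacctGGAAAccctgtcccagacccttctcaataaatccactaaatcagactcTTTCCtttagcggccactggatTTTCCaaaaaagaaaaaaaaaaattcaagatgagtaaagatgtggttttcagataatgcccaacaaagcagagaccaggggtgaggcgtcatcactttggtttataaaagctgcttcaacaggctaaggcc
Il31: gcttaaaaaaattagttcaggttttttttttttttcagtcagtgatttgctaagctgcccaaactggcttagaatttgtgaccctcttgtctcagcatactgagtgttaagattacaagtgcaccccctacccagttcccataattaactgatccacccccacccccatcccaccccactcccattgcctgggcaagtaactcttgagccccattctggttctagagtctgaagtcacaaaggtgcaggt
The Il4 window held 5 NFAT cores, and 0.39% of 32851 RefSeq promoter windows of that length held at least 5. The Il13 window held 4, and 1.59% of windows held at least 4. The Il31 window held 0, while 55.6% of windows held at least 1. The search covered both strands, as did those for the other motifs. The GATA motif GATAA occurred 1 time in the Il13 window and in neither of the others, against 22.6% of windows with at least 1. The AP-1 motif TGANTCA, the STAT motif TTCNNNGAA and the NF-kB motif (GGG, any pair of letters, then TTTCC, which contains the NFAT core) had 0 matches in the 3 windows. They occurred in 6.7%, 7.0% and 1.4% of windows. A match is a run of letters and was not tested as a binding site.

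Il4 was bright in resting basophils and rose to the top of the array after IgE in both genotypes, whereas IL-33 changed it detectably in neither. On the scanner's linear scale, in arbitrary units and before background correction, the Il4 probe read 27778.5, 24699.6 and 24556.3 in IgE-activated ST2KO cells. It read 24614, 23292.4 and 26043.9 in IgE-activated WT cells. The unstimulated cells gave 1621.7, 1795.2 and 1663.4 in ST2KO and 2204.1, 2182.5 and 1760.2 in WT. All 6 IgE arrays lay far above all 6 unstimulated arrays, and the genotypes overlapped after IgE. On each IgE array only a handful of the 45281 probes were brighter than Il4, 4 to 10 in ST2KO cells and 4 to 8 in WT cells. After IL-33 the Il4 probe read 1734.1, 1425.2 and 1531.6 in ST2KO cells and 1970.4, 2306.8 and 2136.2 in WT cells, which overlapped the unstimulated values of each genotype.

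Il13 was dim at rest, rose by a larger factor than Il4 after IgE, and was the member that rose after IL-33, in WT cells. The Il13 probe read 2635.7, 1997.6 and 2020.6 in IgE-activated ST2KO cells and 2588.8, 1944.3 and 2873.9 in IgE-activated WT cells. It read 115.9, 112 and 115.8 in unstimulated ST2KO cells and 116.7, 139.8 and 115.4 in unstimulated WT cells. The resting values stood only slightly above the median signal of all probes, which was 93.2 to 104 on the 18 arrays. After IL-33 the probe read 105.8, 117.1 and 111.7 in ST2KO cells and 154.4, 176.8 and 158.2 in WT cells. The 3 IL-33-stimulated WT arrays were above every unstimulated array of either genotype, and the ST2KO arrays were not. Il13 passed the detection threshold, a detection p-value under 0.05, on all 18 arrays, but on IL-33-stimulated ST2KO replicate 1 only just, at 0.0459.

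Il31 was above background on the 6 IgE arrays and on 0 of the other 12. The Il31 probe read 141.7, 125.3 and 141.8 in IgE-activated ST2KO cells and 143.2, 116.1 and 155.6 in IgE-activated WT cells. It read 91.2, 89.5 and 90.2 in unstimulated ST2KO cells and 95.7, 86.8 and 89.3 in unstimulated WT cells, values that mark the background of the array. After IL-33 it read 88.3, 92.2 and 88.2 in ST2KO cells and 95.6, 85.7 and 95.2 in WT cells, again not above background. No array outside the IgE groups reached the lowest IgE value.

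**Figure D1:**
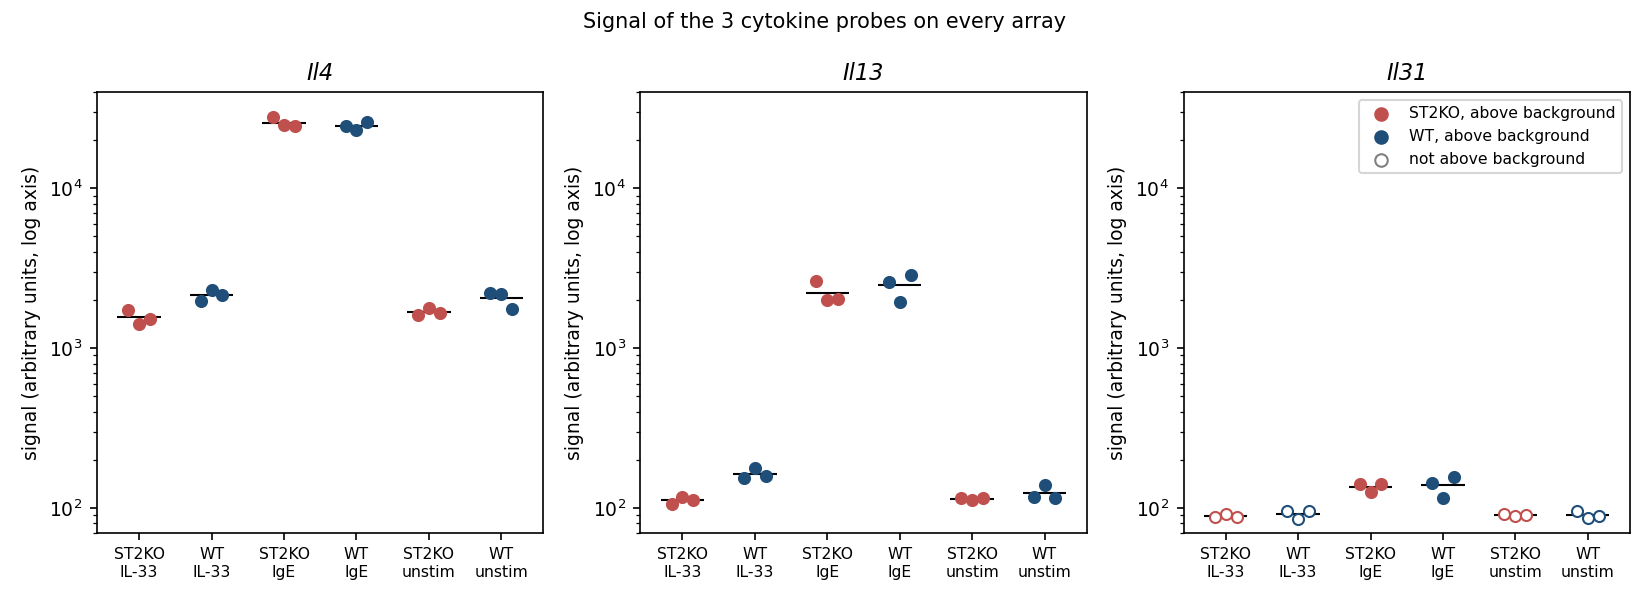
Signal of the Il4, Il13 and Il31 probes on each of 18 arrays, in arbitrary units on a log axis, with ST2KO in red, WT in blue and a line at each group's mean. Filled points are above background (detection p-value under 0.05) and open points are not. The IgE arrays stand above the others for each gene, and Il31 has filled points on the 6 IgE arrays alone.

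For the tests the signals were background-corrected, normalized and put on a log2 scale, which adds an offset and so understates the changes of dim probes. Differences are in log2 units with the standard error of the limma fit over all 18 arrays, and adjusted p-values are by Benjamini-Hochberg over the 9973 genes. Il4 and Il13, detected on all 18 arrays, rose with IgE in both genotypes, as did 22.8% of all genes in ST2KO cells and 22.7% in WT cells. Il31 also passed, but it entered the test through its IgE arrays alone, so that its rise was a condition of being tested and is given as a description. Passing the test is thus common in this comparison, and the size of the change places Il4 and Il13 more closely.

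The normalized level of Il4 averaged 14.60 ± 0.035 in IgE-activated and 10.62 ± 0.07 in unstimulated ST2KO cells (SD, n = 3 each). In WT cells it averaged 14.62 ± 0.024 after IgE and 10.90 ± 0.12 at rest (SD, n = 3 each). Il4 rose 15.7-fold in ST2KO cells (log2 difference 3.98 ± 0.108, adjusted p = 6.59e-14 by limma) and 13.2-fold in WT cells (3.72 ± 0.108, adjusted p = 1.75e-13). By size of change it stood at place 30 of 9973 genes in ST2KO cells and 31 in WT cells. In the IgE groups Il4 read close to the highest signal of any probe on any array, 30053. Whether readings this near the top were compressed was not tested, and the fold, the place, the comparison with Il13 and the genotype difference after IgE all rest on them. In bulk RNA more RNA per cell and more cells of one kind cannot be told apart.

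Il13 averaged 11.03 ± 0.21 in IgE-activated and 5.04 ± 0.082 in unstimulated ST2KO cells (SD, n = 3 each). The WT averages were 11.18 ± 0.21 after IgE and 5.35 ± 0.49 at rest (SD, n = 3 each). Il13 rose 63.7-fold in ST2KO cells (log2 difference 5.99 ± 0.227, adjusted p = 6.69e-12 by limma) and 56.9-fold in WT cells (5.83 ± 0.227, adjusted p = 1.05e-11). It held place 8 by size of change in each genotype. These folds depend on the background correction, since without one the log2 difference was 4.27 in ST2KO cells and 4.30 in WT cells.

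On the background-corrected scale Il31 rose at least 2.04-fold in ST2KO cells and at least 2.11-fold in WT cells. Both are lower bounds on that scale alone, because the unstimulated cells had no array above background. Each bound sets the mean of the IgE arrays against the lowest signal among probes that passed the detection threshold on each resting array. The IgE-activated levels averaged 5.82 ± 0.26 in ST2KO cells and 5.89 ± 0.42 in WT cells (SD, n = 3 each), and the measured unstimulated levels averaged 4.27 ± 0.0073 and 4.28 ± 0.025. The fit gave log2 differences of 1.55 ± 0.159 in ST2KO cells and 1.61 ± 0.159 in WT cells. They are a description, because the rise was a condition of being tested. In the authors' processed values the log2 differences were 2.48 in ST2KO cells and 2.42 in WT cells. Without background correction they were 0.61 and 0.63 for the same genotypes, below the bound, so the size of the Il31 rise, the bound included, depends on the background correction.

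Samples carrying the same number in the labels gave the same ordering of the members. From the unstimulated to the IgE array of the same number, Il13 differed by 6.15, 5.92 and 5.91 log2 units in ST2KO cells and by 6.34, 5.07 and 6.08 in WT cells. Il4 differed by 4.05, 3.88 and 4.00 in ST2KO cells and by 3.79, 3.56 and 3.81 in WT cells. The Il31 differences were 1.64, 1.26 and 1.76 in ST2KO cells and 1.69, 1.18 and 1.95 in WT cells. In WT cells, number 2 gave the smallest difference of each gene.

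Whether the members responded by different amounts was tested on the difference between 2 genes within each array. The IgE response of Il13 exceeded that of Il4 by 2.02 log2 units in ST2KO cells and by 2.11 in WT cells. Each had an exact two-sided permutation p of 0.1, the smallest that 3 against 3 arrays can give, and an adjusted p of 0.15 over 12 such tests. This test therefore cannot bring these differences under 0.05 with 3 arrays a group, and the within-array differences of the stimulated and unstimulated groups did not overlap. In WT cells the IL-33 response of Il13 exceeded that of Il4 by 0.98 log2 units, with the same exact permutation p of 0.1. In ST2KO cells that difference was 0.04, with an exact permutation p of 0.9.

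After IL-33, 1 of the 3 members passed the test in WT cells, against 3.01% of all genes that rose. Il13 averaged 6.47 ± 0.40 in IL-33-stimulated WT cells and 5.35 ± 0.49 in unstimulated WT cells (SD, n = 3 each). It rose 2.18-fold, with a log2 difference of 1.12 ± 0.227 (95% confidence interval 0.64 to 1.60, adjusted p = 0.00594 by limma), place 124 by size of change. Within numbers 1, 2 and 3 the differences were 1.32, 1.05 and 1.0. With only the 2 WT groups in the fit the difference was the same and the call was lost (adjusted p = 0.126).

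Il4 averaged 11.03 ± 0.20 in IL-33-stimulated WT cells and 10.90 ± 0.12 in unstimulated WT cells (SD, n = 3 each). The log2 difference was 0.14 ± 0.108, with a 95% confidence interval of -0.09 to 0.37 (adjusted p = 0.639 by limma). A rise of Il4 as large as that of Il13 therefore lies outside this interval. Il31 was below background in both groups and has no fold change.

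In ST2KO cells 0 of the 3 members passed after IL-33, and 0 of all genes did. At an unadjusted p under 0.05, limma counted 274 genes in that comparison, and its lowest adjusted p was 0.61. The log2 difference of Il13 between IL-33-stimulated and unstimulated ST2KO cells was 0.03 (95% confidence interval -0.44 to 0.51), and that of Il4 was -0.01 (-0.23 to 0.22). Within numbers 1, 2 and 3 Il13 differed by -0.29, 0.43 and -0.03, with no common direction.

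Set directly against each other, the stimuli differed for Il4 and Il13 in both genotypes. Both genes were lower after IL-33 than after IgE, as were 23.5% of all genes in ST2KO cells and 21.2% in WT cells. Il13 was 62.2-fold lower after IL-33 than after IgE in ST2KO cells (adjusted p = 6.33e-12 by limma) and 26.1-fold lower in WT cells (adjusted p = 1.59e-10). For Il4 the log2 differences, IL-33 minus IgE, were -3.98 in ST2KO cells and -3.58 in WT cells. Il31, again as a description and on the background-corrected scale, was at least 2.0-fold lower after IL-33 in ST2KO cells and at least 2.06-fold lower in WT cells.

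Between genotypes, the levels reached after IgE did not differ detectably. The ST2KO minus WT difference after IgE was -0.02 for Il4 (95% confidence interval -0.25 to 0.21), -0.14 for Il13 (-0.62 to 0.34) and -0.07 for Il31 (-0.41 to 0.26). In this comparison 0 of 3 members passed, against 0.0201% of all genes, which was 2 genes. At an unadjusted p under 0.05, limma counted 800 genes. The IgE response itself, as the difference of differences, was 0.25 ± 0.153 log2 units larger in ST2KO cells for Il4 (95% confidence interval -0.07 to 0.58, adjusted p = 0.982 by limma). For Il13 it was 0.16 larger (-0.51 to 0.84, adjusted p = 0.989), and 0 of all genes passed, with 434 at an unadjusted p under 0.05.

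After IL-33, Il13 and Il4 were lower in ST2KO than in WT cells, which is 2 of the 3 members against 3.75% of all genes lower in this comparison. Il13 averaged 5.07 ± 0.29 in IL-33-stimulated ST2KO cells and 6.47 ± 0.40 in IL-33-stimulated WT cells (SD, n = 3 each). It was 2.63-fold lower in ST2KO cells, with a log2 difference of -1.39 ± 0.227 (95% confidence interval -1.87 to -0.92, adjusted p = 0.000715 by limma). Il4 averaged 10.62 ± 0.11 in ST2KO cells and 11.03 ± 0.20 in WT cells after IL-33 (SD, n = 3 each). Its log2 difference was -0.42 ± 0.108 (95% confidence interval -0.64 to -0.19, adjusted p = 0.0309 by limma).

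A smaller Il4 difference in the same direction was measured before stimulation, but it was not called. In unstimulated cells Il4 was lower on all 3 ST2KO arrays than on any WT array once normalized, by 0.27 log2 units (ST2KO minus WT, -0.27, 95% confidence interval -0.50 to -0.04), which did not pass (adjusted p = 0.553 by limma). The change of that gap with IL-33 was -0.15 (95% confidence interval -0.47 to 0.18, adjusted p = 0.795). The Il4 call after IL-33 also rests on single arrays. It was lost without WT replicate 2 (-0.30, adjusted p = 0.137 by limma), without WT replicate 3 (-0.44, 0.0535), without ST2KO replicate 2 (-0.39, 0.108) and without ST2KO replicate 3 (-0.38, 0.118).

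For Il13 the unstimulated difference was -0.31 (95% confidence interval -0.79 to 0.17, adjusted p = 0.695 by limma). In unstimulated cells 0 of all genes differed between genotypes, with 832 at an unadjusted p under 0.05. The difference in IL-33 response was -1.09 ± 0.321 log2 units in ST2KO relative to WT cells (95% confidence interval -1.77 to -0.41). It did not pass after adjustment (adjusted p = 0.134 by limma), while 1.76% of all genes passed in either direction and 1.58% had a smaller, or more negative, response in ST2KO cells. It passed without unstimulated WT replicate 2, the array with the highest resting Il13 (-1.35, adjusted p = 0.0192). It also passed without the 3 WT arrays of number 2 (-1.12, adjusted p = 0.0188), an alternative chosen after seeing the data. The Il13 response to IL-33 was thus called in WT cells and not in ST2KO cells, and the test of that difference gave an adjusted p above 0.05.

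**Figure D2:**
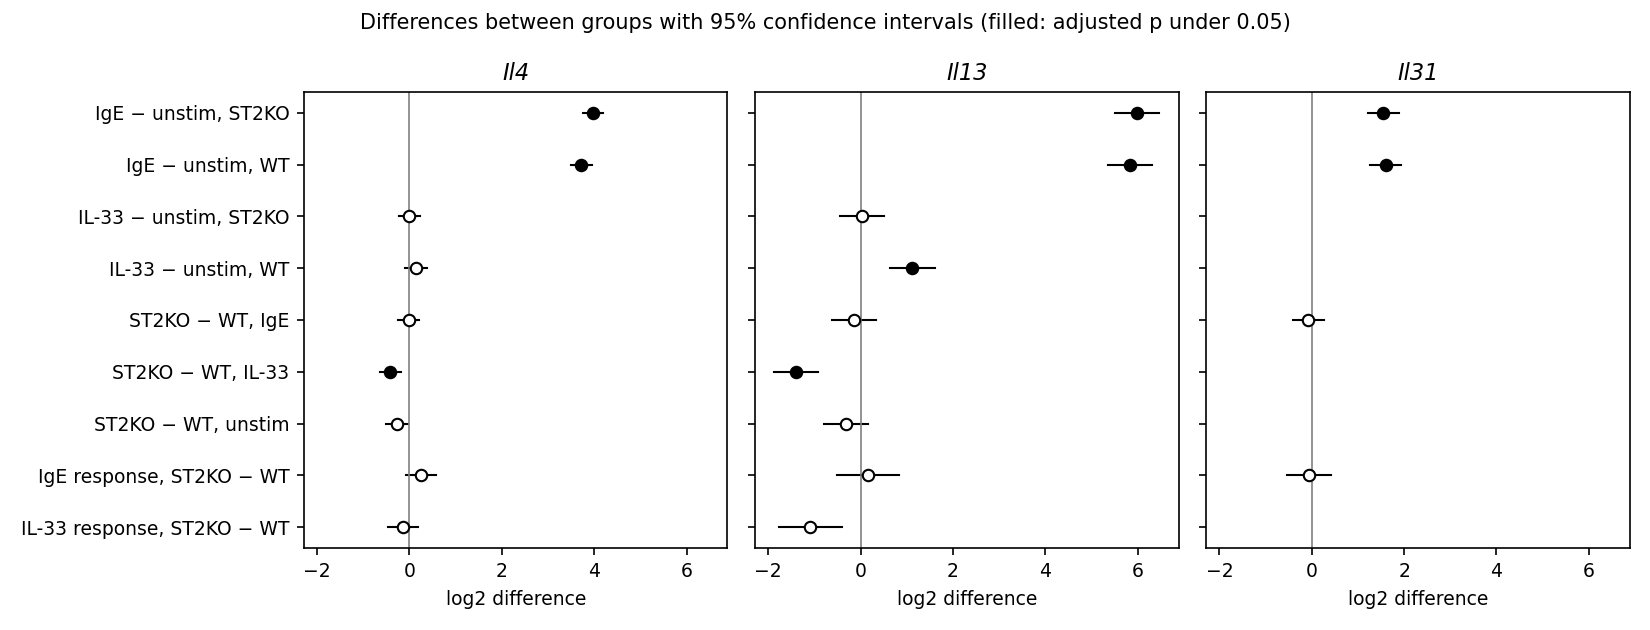
Log2 differences of Il4, Il13 and Il31 between groups (points) with 95% confidence intervals (lines), filled where the adjusted p was under 0.05. Differences in which Il31 was not above background in either group are left out, and its resting values enter the IgE differences as measured. Each IgE minus unstimulated difference lies to the right of 0, and among IL-33 responses only that of Il13 in WT cells is filled. The filled Il31 points for IgE are a description, because its rise was a condition of being tested.

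In order of level, Il4 was highest in IgE-activated WT and ST2KO cells, whose arrays overlapped. IL-33-stimulated and unstimulated WT cells followed, overlapping each other, and then IL-33-stimulated and unstimulated ST2KO cells, overlapping each other. For Il13, IL-33-stimulated WT cells stood alone between the overlapping IgE groups and the other 3 groups, which overlapped. Il31 had the IgE groups, which overlapped, and 4 groups without a measured level.

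Over the 18 arrays Il4 and Il13 had a Pearson correlation of 0.991, Il4 and Il31 of 0.972 and Il13 and Il31 of 0.965. These describe mainly the split between IgE and other arrays. By the same measure 867, 798 and 800 of 9972 other genes correlated above 0.9 with Il4, Il13 and Il31, in that order. The 5 genes most like Il4 were Il3, Lif, Ccl1, Tmem51 and Hbegf, with r of 0.994 to 0.996. Il3 encodes a growth factor of basophils, Lif a cytokine of the IL-6 family, Ccl1 a chemokine and Hbegf a growth factor that binds the EGF receptor. Most like Il13 were Ccl1, Lif, Ada, Cers6 and Slco4a1, with r of 0.992 to 0.995. Ada encodes adenosine deaminase and Cers6 a ceramide synthase. Most like Il31 were Tnfrsf4, which encodes the co-stimulatory receptor OX40, then the chemokine gene Xcl1, the enkephalin gene Penk, Rrp12 and Il2, with r of 0.985 to 0.991.

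Among other cytokine genes, 6 of 12 were tested. With IgE 5 rose in ST2KO cells, where 22.8% of all genes rose, and 6 in WT cells, where 22.7% did. Il5 and Il33 were above background on no IL-33 array, and at rest Il5 on no ST2KO and Il33 on no WT array. Their rises may thus have been a condition of being tested. With detection required on at least 6 arrays, 5 rose in WT cells. The median log2 difference of the 6 was 6.16 in ST2KO cells and 5.09 in WT cells, beside -0.025 and -0.017 over all genes. Il3 differed by 7.85 ± 0.343 in ST2KO cells, where it was not above background at rest and rose at least 172-fold, and by 7.51 ± 0.343 in WT cells. Tnf, which encodes an inflammatory cytokine, differed by 7.62 ± 0.48 in ST2KO cells and 6.36 ± 0.48 in WT cells. Csf2, which encodes GM-CSF, differed by 7.12 ± 0.389 in ST2KO cells and 5.99 ± 0.389 in WT cells. Il6 differed by 5.20 ± 0.268 and 4.19 ± 0.268. Beside them, Il13 differed by 5.99 in ST2KO cells and 5.83 in WT cells, and Il4 by 3.98 and 3.72, and the differences between genes were not tested here. Il5, the third cytokine of the cluster and named here after its values were seen, passed in WT cells (0.65 ± 0.208, adjusted p = 0.0159 by limma) and not in ST2KO cells (0.41 ± 0.208, adjusted p = 0.117). In unstimulated ST2KO cells Il5 was above background on no array. Its IgE response did not differ detectably between genotypes (ST2KO minus WT, -0.24 ± 0.294, adjusted p = 0.989 by limma). Il33, also outside the rule for naming, differed by 2.40 ± 0.128 in ST2KO cells and 2.83 ± 0.128 in WT cells, where the rise was at least 5.71-fold because Il33 was not above background at rest.

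With IL-33 in WT cells 3 of these 6 rose, against 3.01% of all genes. Csf2 differed by 3.36 ± 0.389 (adjusted p = 2.19e-05 by limma), Il6 by 2.85 ± 0.268 (adjusted p = 2.06e-06) and Tnf by 2.23 ± 0.48 (adjusted p = 0.00954), beside 1.12 for Il13. Il3 differed by 0.09 ± 0.343 (adjusted p = 0.952). In ST2KO cells 0 of the 6 passed. After IL-33, Csf2, Il6 and Tnf were also lower in ST2KO than in WT cells, by log2 differences of -4.38, -3.39 and -3.27. In unstimulated cells these differences were -1.19, -0.72 and -1.46 and did not pass (adjusted p = 0.553 by limma for each). For Tnf the difference in IL-33 response, ST2KO minus WT, was -1.82 ± 0.678 and did not pass (adjusted p = 0.293 by limma). Il9, Il10, Il24, Il25 and Tslp were not above background on enough arrays to be tested, and Areg was not among the annotated symbols.

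**Figure D3:**
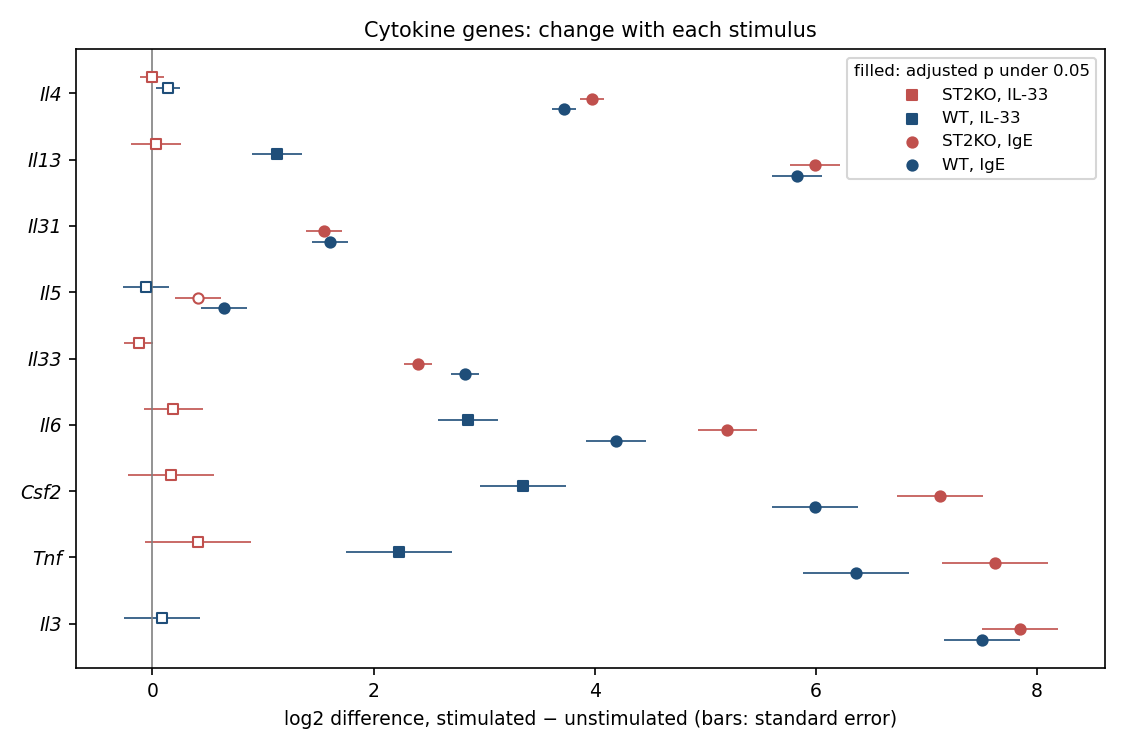
Log2 differences between stimulated and unstimulated cells (points, with standard errors as bars) for the 3 members and 6 other cytokine genes. ST2KO is red, WT is blue, squares are IL-33 and circles are IgE, and points where neither group had an array above background are left out. Csf2, Il6, Tnf and Il13 have filled IL-33 points in WT cells, and Il4 and Il3 do not. The filled Il31 points for IgE are a description, because its rise was a condition of being tested.

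Genes of the receptors and signalling of the 3 cytokines had median log2 differences with IgE of 0.23 in ST2KO cells and 0.318 in WT cells. Of 13 tested of 18, 5 rose and 1 fell with IgE in ST2KO cells, 6 rose and 1 fell in WT cells, and 5 rose with IL-33 in WT cells. Over all genes 22.8% rose and 26.4% fell with IgE in ST2KO cells, and 22.7% rose and 24.3% fell in WT cells. After IL-33, 3.01% of all genes rose and 0.772% fell in WT cells. Socs3, which like Socs1 and Cish encodes a feedback inhibitor of cytokine signalling, differed with IgE by 3.35 ± 0.224 log2 units in ST2KO cells and 3.15 ± 0.224 in WT cells, and with IL-33 by 1.66 ± 0.224 in WT cells. Socs1 differed with IgE by 2.28 ± 0.321 in ST2KO cells and 2.12 ± 0.321 in WT cells, and Cish by 1.86 ± 0.153 and 1.73 ± 0.153. Stat5a, which encodes a transcription factor that relays IL-3 and other signals, differed with IgE by 1.95 ± 0.153 in ST2KO cells and 1.73 ± 0.153 in WT cells, and with IL-33 by 1.33 ± 0.153 in WT cells. The gene for the shared receptor chain, Il4ra, passed in none of these. After IL-33 it was higher in ST2KO than in WT cells, with a log2 difference of 0.81 ± 0.196 (adjusted p = 0.019 by limma). It was the 1 gene of this list that was higher there, and 5 were lower, against 2.32% of all genes higher and 3.75% lower. Il13ra1, Il13ra2 and Il31ra were not above background on enough arrays to be tested.

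Of genes known to respond to IL-4 or IL-13 in other cells, chiefly macrophages, 13 of 14 were tested. With IgE 7 rose and 1 fell in ST2KO cells, 6 rose and 1 fell in WT cells, and with IL-33 1 rose in WT cells. Over all genes 22.8% rose and 26.4% fell with IgE in ST2KO cells, and 22.7% rose and 24.3% fell in WT cells. After IL-33, 3.01% of all genes rose in WT cells. The median log2 difference of the 13 with IgE was 0.71 in ST2KO cells and 0.63 in WT cells. Ccl17, which encodes a chemokine for type 2 T cells, differed by 5.27 ± 0.344 in ST2KO cells and 6.34 ± 0.344 in WT cells. Ccl24, an eosinophil chemokine gene, differed by 3.47 ± 0.169 and 4.17 ± 0.169. Arg1, which encodes arginase, differed by 3.56 ± 0.826 in ST2KO cells and 2.43 ± 0.826 in WT cells. The gene that rose with IL-33 was Pdcd1lg2, which encodes the PD-1 ligand PD-L2, with a log2 difference of 0.93 ± 0.128 (adjusted p = 0.000155 by limma).

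Of 35 genes for transcription factors that act on Il4 and Il13, 26 were tested. With IgE 17 rose and 5 fell in ST2KO cells, and 16 rose and 4 fell in WT cells. Over all genes tested, 22.8% rose and 26.4% fell in ST2KO cells, and 22.7% rose and 24.3% fell in WT cells. Rises in the list were thus more frequent than over all genes, falls were near those shares, and no set test was run. Egr2, which encodes an early growth response factor, differed by 5.13 ± 0.249 log2 units in ST2KO cells and 4.84 ± 0.249 in WT cells. Irf4, whose product partners NFAT and BATF at cytokine genes, differed by 3.58 ± 0.195 and 3.75 ± 0.195. Bcl6, which encodes a repressor of type 2 cytokine genes, fell by 3.36 in ST2KO cells and fell by 3.13 in WT cells. Fos, which encodes a subunit of AP-1, fell by 3.23 in ST2KO cells and fell by 3.05 in WT cells. With IL-33 in WT cells 5 rose and 0 fell, against 3.01% and 0.772% of all genes. The 5 were Egr2 (1.97 ± 0.249), Batf (1.91 ± 0.17), Stat5a (1.33 ± 0.153), Junb (1.03 ± 0.137) and Cebpb (0.58 ± 0.124), the last of these outside the rule for naming. Irf4 differed by 0.22 ± 0.195 after IL-33 and did not pass (adjusted p = 0.683 by limma). After IL-33, 7 of the 26 were lower and 0 higher in ST2KO than in WT cells, against 3.75% and 2.32% of all genes. The 7 were led by Egr2 (-2.28 ± 0.249), Batf (-1.79 ± 0.17), Stat5a (-1.18 ± 0.153) and Junb (-0.90 ± 0.137).

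**Figure D4:**
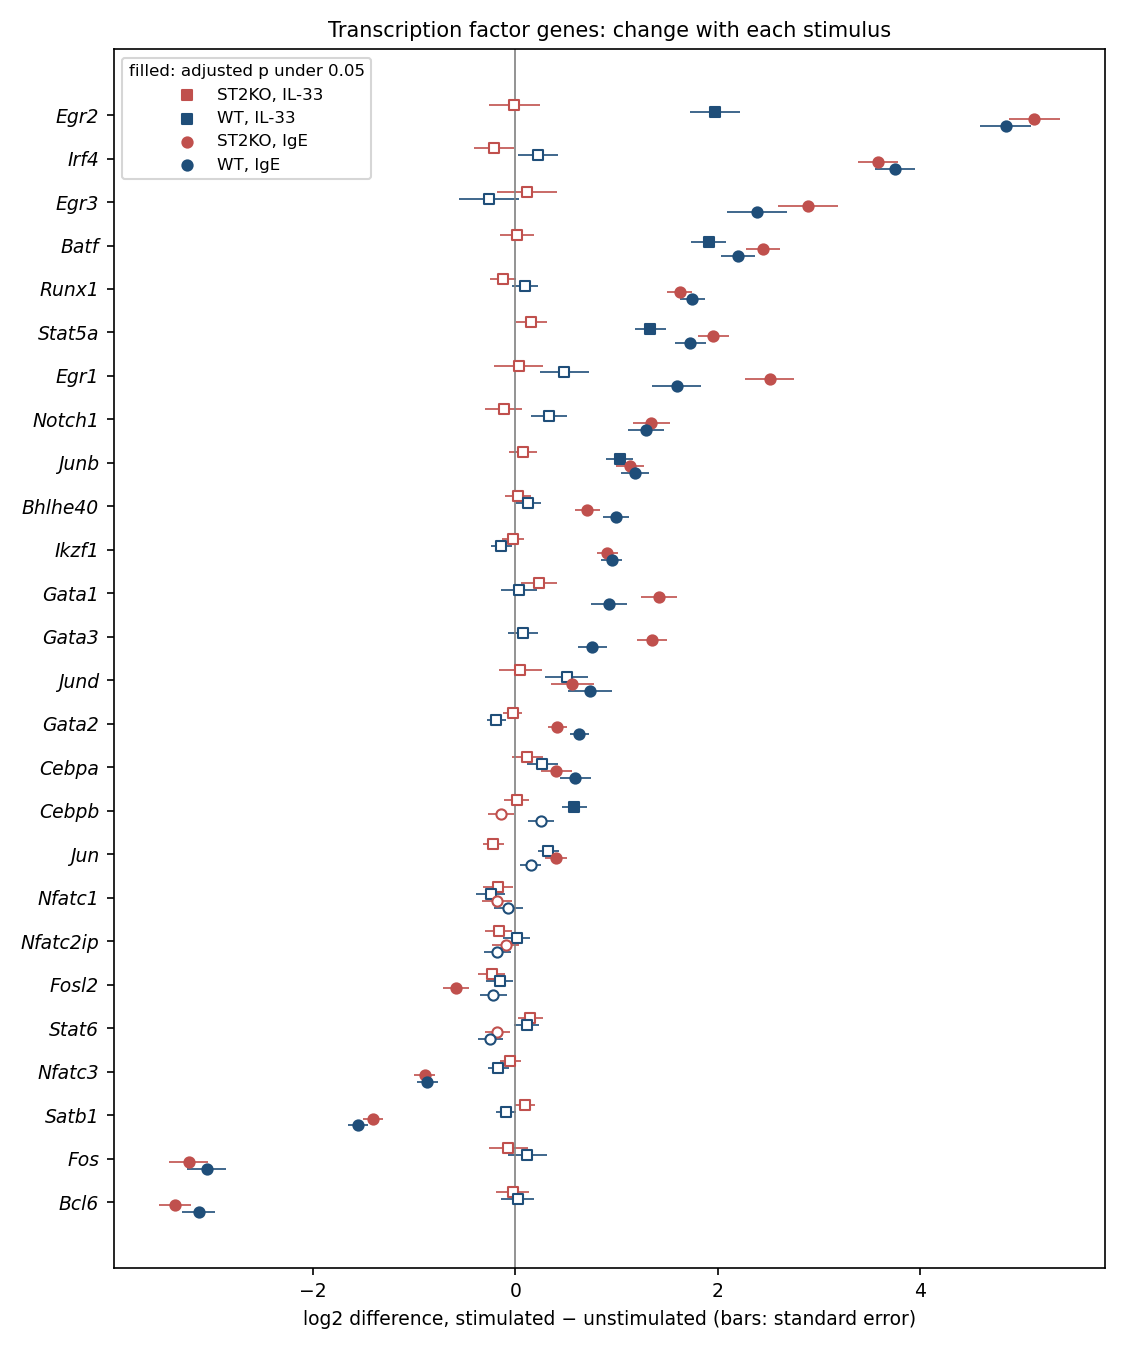
Log2 differences between stimulated and unstimulated cells (points, with standard errors as bars) for the 26 tested genes of transcription factors, ordered by their IgE difference in WT cells. Colours and symbols are as for the cytokine genes. Egr2 stands at the top, Bcl6 and Fos at the bottom, and the filled IL-33 squares are those of Egr2, Batf, Stat5a, Junb and Cebpb in WT cells.

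Of the 20 protein-coding genes nearest Il4 and Il13, 10 to each side, 15 were tested. With IgE 5 rose and 7 fell in ST2KO cells, and 6 rose and 5 fell in WT cells. Over all genes 22.8% rose and 26.4% fell in ST2KO cells, and 22.7% rose and 24.3% fell in WT cells. Beside Il3 and Csf2, already given, Hspa4, which encodes a chaperone, differed by 1.43 ± 0.227 in ST2KO cells and 1.48 ± 0.227 in WT cells. Irf1, which encodes an interferon-response factor, fell by 1.48 in ST2KO cells and fell by 1.74 in WT cells. Rad50, named after its values were seen because it lies beside Il13 and houses the known control region of the cluster, differed by 0.10 ± 0.135 and 0.26 ± 0.135 and did not pass in either genotype. With IL-33 in WT cells 3 of the 15 rose, against 3.01% of all genes. The 3 were Csf2, Pdlim4 (0.94 ± 0.127) and P4ha2 (0.92 ± 0.156). Of the 20 nearest Il31, 15 were tested, and with IgE 5 rose and 3 fell in ST2KO cells and 5 rose and 5 fell in WT cells. Kntc1, named after its values were seen, was among the 5 that rose in each genotype. It was above background on IgE arrays alone, so its rise was a condition of being tested. Hcar2, which encodes a receptor for niacin and ketone bodies, differed by 1.84 ± 0.251 with IgE in ST2KO cells and 1.91 ± 0.251 in WT cells. With IL-33 it differed by 2.75 ± 0.251 in WT cells, beside 1.12 for Il13. Rhof, which encodes a small GTPase, differed with IgE by 2.17 ± 0.132 in ST2KO cells and 1.78 ± 0.132 in WT cells. It was the other of the 2 Il31 neighbours that rose with IL-33 in WT cells, by 0.66 ± 0.132. Bcl7a differed with IgE by -1.588 ± 0.15 in ST2KO cells and -1.225 ± 0.15 in WT cells. Clip1 differed by -1.394 ± 0.113 and -1.434 ± 0.113.

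All 11 basophil markers were on the array and passed the filter on dim probes, and their summed normalized level was 95770 to 111800 over the 18 arrays. Itga2, named after its values were seen, was above background on no array of IgE-activated ST2KO cells or of IL-33-stimulated cells of either genotype. With IgE 2 of the 11 rose and 2 fell in ST2KO cells, and 2 rose and 3 fell in WT cells. Over all genes 22.8% rose and 26.4% fell in ST2KO cells, and 22.7% rose and 24.3% fell in WT cells. T cells and innate lymphoid cells are other sources of these cytokines. The sum of their 12 marker genes on the array was 1816 to 2604. Of these, Cd3d, Cd3e, Cd3g, Cd8a and Cd28 were above background on no array, while 6 genes were tested. With IgE in each genotype Gata3 and Klrg1 rose and Rora fell, and Thy1, Il7r and Icos did not pass. These 6 were named after their values were seen. Gata3 was above background on no unstimulated array, and its rise was at least 2.34-fold in ST2KO and 1.35-fold in WT cells. Rora was above background on no IgE array, and its fall was at least 1.32-fold in each genotype. Mast cell markers moved with the IgE comparisons. Their sum over 10 genes was 39820 to 42130 in IgE-activated and 33130 to 37210 in unstimulated ST2KO cells, and 37870 to 43340 in IgE-activated and 33240 to 38530 in unstimulated WT cells. Of 7 tested, 3 rose with IgE in each genotype, against 22.8% of all genes in ST2KO cells and 22.7% in WT cells. Mcpt4, named after its values were seen, was among the 3 in each genotype. It was above background on IgE arrays alone, so its rise was a condition of being tested. Mcpt2 and Mitf were above background on no array. The sum of 6 macrophage and monocyte markers was lower on every ST2KO than on every WT array after IL-33. It was 4701 to 5086 in IL-33-stimulated ST2KO cells and 6214 to 7125 in IL-33-stimulated WT cells. In unstimulated WT cells it was 5065 to 6558, which overlaps the IL-33-stimulated WT range. With IL-33 in WT cells 1 of the 6, Cd14, named after its values were seen, rose, against 3.01% of all genes. The others did not pass, with log2 differences of -0.045 to 0.231. The part of these marker lists in the results on the cytokine genes was not tested. Neutrophil markers varied most between arrays of a group, for example from 496 to 5149 in IL-33-stimulated WT cells. At rest their sum was 428.4 to 574 in ST2KO cells and 1170 to 4521 in WT cells, without overlap. After IgE and after IL-33 the genotypes overlapped. Between unstimulated genotypes 0 of the 7 neutrophil markers tested passed, and the part of this gap in the results on the cytokine genes was not tested. On each array 14587 to 15741 probes were above background, and arrays of a group correlated at 0.981 to 0.994.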

How the data were processed

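RNA of bone marrow-derived basophils was measured on 18 Illumina arrays, 3 in each of 6 groups, and the labels gave groups and replicate numbers. The authors deposited a table of probe signals, which are linear intensity values not yet normalized between arrays, with their detection p-value, per the file headers. The lowest signals were 76.2 to 83.7, so the background had not been subtracted. The authors' processed values, deposited separately, are log2 values whose median was 4.29 on each array, and their rank correlation with the signal was 1. Their background correction was not given in the sources used here, and whether a constant was added is unknown.

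Signals were normalized in R 4.3.3 by the neqc function (limma 3.58.1), using the detection p-values and an offset of 16. The filter kept the 18078 of 45281 probes detected (p under 0.05) on at least 3 arrays, and 4 blank lines were left out. The platform annotation gave 34885 probes 1 gene symbol, 18 several and 10378 none. Of the first, 34807 had their Entrez identifier in the RefSeq table, which changed 0 symbols. Each gene was represented by its brightest kept probe, giving 9973 genes, 3645 of them with more than 1. Group means were fitted to all 18 arrays with lmFit, and 11 comparisons were tested with eBayes and Benjamini-Hochberg adjustment at 0.05. Differences between members were tested within arrays by exact permutation. The fit was tested on simulated data.

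Where a group had no array above background for a gene, its change was given as a bound, set from the lowest normalized signal among probes above background on each array, or the gene's own where that was higher. Sums of markers are of normalized signals on the linear scale. Promoter sequences and gene positions are RefSeq's, build GRCm38.p6, and were found for all 3 members. Motifs were counted with Python 3.11.15. The number of arrays limits the precision.

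Same-numbered arrays were compared by the correlation of their deviations from the group means. In WT cells every pair exceeded 0.1 (0.22, 0.31 and 0.28 between unstimulated and IgE arrays). In ST2KO cells unstimulated and IL-33 arrays did not (-0.03, 0.04 and 0.26), nor did the genotypes pair with each other.

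The members and lists were chosen with earlier results of these data known. Named genes were the members, the 5 genes most correlated with each member, and marker genes above background on no array. From each list other than the marker lists, the 4 genes with the largest change among those that passed were named. Exceptions are marked in the text. Alternatives were another normalization, offset, filter and probe rule, the authors' values, array weights, blocks, fewer groups in the fit, and leaving out arrays.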

Additional observations from a re-analysis of the deposited data

Results flagged for a closer look

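The response to IL-33, stimulated minus unstimulated, differed between ST2KO and WT cells by its own interaction test for 10 genes named beside the members, while 1.76% of all genes differed in either direction. The values are ST2KO minus WT in log2 units with limma's adjusted p. Among cytokine genes Csf2 differed by -3.18 ± 0.551 (adjusted p = 0.00317) and Il6 by -2.67 ± 0.379 (adjusted p = 0.000486). Among transcription factor genes Egr2 differed by -1.98 ± 0.352 (adjusted p = 0.00399) and Batf by -1.89 ± 0.241 (adjusted p = 0.000155). Stat5a differed by -1.18 ± 0.216 (adjusted p = 0.00535) and Junb by -0.95 ± 0.194 (adjusted p = 0.0126). The feedback inhibitor gene Socs3 differed by -1.57 ± 0.317 (adjusted p = 0.011) and Pdcd1lg2 by -0.96 ± 0.18 (adjusted p = 0.0065). Among neighbours, Hcar2 near Il31 differed by -2.79 ± 0.355 (adjusted p = 0.000155) and Pdlim4 near Il4 and Il13 by -0.74 ± 0.179 (adjusted p = 0.0437). Il13 was not among them, at -1.09 ± 0.321 (adjusted p = 0.134). Groups of 3 arrays were not searched for outlying samples.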

How the results depend on the processing

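Of 28 results on the members, 25 kept their call in every alternative run, 526 in all, and 0 called differences changed direction. The 25 include the Il31 differences between IgE arrays and unstimulated or IL-33 arrays. Their direction was a condition of being tested, so their kept calls are a description. Differences that did not pass could change sign, such as that in the IgE response of Il13 (-0.22 to 0.39). With only the compared groups fitted, the IL-33 response of Il13 in WT cells was 1.12 (adjusted p = 0.126 by limma), and the ST2KO minus WT difference of Il4 after IL-33 was -0.42 (adjusted p = 0.16). That Il4 difference ranged from -0.50 to -0.30 with each replicate left out, and was -0.30 (adjusted p = 0.103) without the 3 WT arrays of number 2. Over its alternatives its adjusted p ran from 0.00869 to 0.16. The difference in the IL-33 response of Il13 ranged from -1.35 to -0.86 with each replicate left out and was -1.12 (adjusted p = 0.0188) without the 3 WT arrays of number 2. Over its alternatives its adjusted p ran from 0.0188 to 0.283. The rise with IgE ranged for Il31 from 0.61 to 2.48 log2 units in ST2KO cells and 0.63 to 2.42 in WT cells, and for Il13 from 4.27 to 6.07 and 4.30 to 6.21. The IL-33 response of Il13 in WT cells was 0.48 (adjusted p = 0.0387) without background correction. The replicate blocks, with number as a fixed block or genotype and number as a random block of correlation 0.128, changed no call on a member.

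Counts of all genes moved more. For IL-33 in WT cells 377 passed, against 641 with array weights and 197 with the compared groups alone. For ST2KO against WT after IL-33 605 passed, against 1347 with array weights and 357 to 458 with each replicate left out. For the difference in IL-33 response 176 passed, against 300 with array weights. After IgE 2 genes differed between genotypes, against 4 without a filter and 0 with the authors' values, the filter at 6 arrays, array weights or the compared groups alone, and 0 to 14 with each replicate left out. Of the receptor and signalling genes 5 rose with IL-33 in WT cells, against 3 without a filter and 2 with the compared groups alone. Of the genes known to respond to IL-4 or IL-13, 1 rose, against 3 with array weights and 2 with each replicate block. Slide as a block was not run, since the files used give no slide. The cause of these shifts was not tested.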
